A study of Homo sapiens with 9 samples.

Results

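Genes whose products fold, inspect and dispose of proteins in the endoplasmic reticulum (ER) were followed in OCI-Ly1, an established human line of diffuse large B-cell lymphoma. The set holds 36 named genes of the 25370 symbols in the count table, and it was taken as listed: 17 chaperones and oxidoreductases, 12 genes of ER-associated degradation (ERAD) and stress sensing, and 7 genes of the translocon. All 36 were found in the table, and all 36 passed the filter on low counts that left 15089 genes for testing. Their lowest count in any library was 81, for ERN1 in DMSO replicate 2.

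The cells were grown in IMDM with 10% FBS and exposed for 48 h to the vehicle DMSO, to 150 nM JIB-04 or to 500 nM JIB-04. JIB-04 inhibits histone demethylases of the Jumonji family, which includes the KDM4A and KDM4C enzymes that the study is about. Each group has 3 libraries of total RNA depleted of ribosomal RNA, of 28476845 to 57198613 counts, from the same cell line with no genetic change stated. Separate cultures are not named in the labels, and the p-values may therefore reflect technical spread among the 3 libraries alone. Of 8 B-cell marker genes none was at 0 in any library. Summed, these markers came to 1948 to 2029 CPM (counts scaled to a common library size) in DMSO, 1950 to 2033 at 150 nM and 1711 to 1782 at 500 nM.

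Proteins bound for secretion or for membranes enter the ER through the SEC61 channel. They are folded there by chaperones of the HSP70 and HSP90 families, by the lectin pair calnexin and calreticulin, and by protein disulfide isomerases. Proteins that fail to fold are drawn back across the membrane by the HRD1 complex and destroyed by the proteasome. When unfolded proteins accumulate, the sensors IRE1 (gene ERN1), ATF6 and PERK (gene EIF2AK3) start the unfolded protein response, which in textbook form raises both chaperone and ERAD genes, through XBP1, ATF6 and ATF4. B-cell lines, close to antibody-secreting cells in their lineage, express much of this machinery.

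The classes moved apart at 500 nM JIB-04. Against DMSO, 10 of the 17 chaperones and oxidoreductases fell, 4 rose and 3 were not called. Of the 12 ERAD and sensor genes 8 rose, 0 fell and 4 were not called. Calls here and below rest on an adjusted p below 0.05 from edgeR's quasi-likelihood test, with Benjamini-Hochberg adjustment over all genes tested. The background was broad: 26.3% of all genes tested were called higher at 500 nM and 25.6% lower. The median log2 fold change was -0.30 over the chaperones and oxidoreductases, 0.37 over the ERAD and sensor genes and 0.01 over all genes tested. The 7 translocon genes had a median of 0.04, with 1 higher and 2 lower. In RNA from whole cultures, fewer cells of a type and less RNA per cell cannot be told apart.

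The same split shows in the summed levels. The 17 chaperones and oxidoreductases summed to 3966, 4107 and 4012 CPM in the DMSO libraries, to 3788, 3674 and 3934 CPM at 150 nM and to 2963, 2887 and 2827 CPM at 500 nM. The 12 ERAD and sensor genes summed to 909, 929 and 919.8 CPM in DMSO, to 993, 1034 and 1023 CPM at 150 nM and to 1436, 1403 and 1422 CPM at 500 nM. Neither sum overlapped between any pair of groups, and the sums ran in opposite directions with dose. The ratio of the first sum to the second was 4.37, 4.42 and 4.36 in DMSO, 3.82, 3.55 and 3.85 at 150 nM, and 2.06, 2.06 and 1.99 at 500 nM. The translocon sum stayed between 686 and 755 CPM, with overlapping groups. A few abundant genes set these sums, since CALR and CANX together make up much of the chaperone total, so the genes are described one by one.

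**Figure D1:**
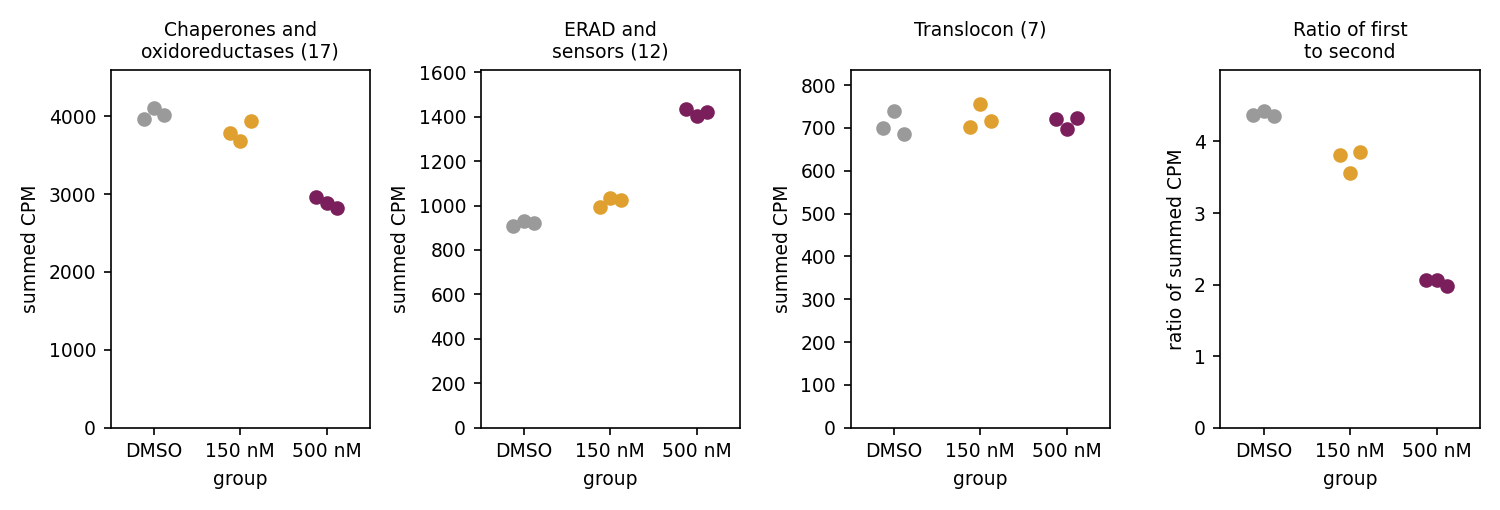
Summed CPM (vertical axes, from 0) of each class of genes in each library, and the ratio of the chaperone to the ERAD sum (right), by group; each point is 1 library. The chaperone sum fell to between 2827 and 2963 at 500 nM while the ERAD sum rose to between 1403 and 1436, and the ratio went from between 4.36 and 4.42 in DMSO to between 1.99 and 2.06.

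The lectin chaperones and the main HSP70 and HSP90 proteins of the ER were among the genes that fell. CALR encodes calreticulin, which binds calcium and glycoproteins whose trimmed sugar chain still ends in glucose. It measured 889, 901 and 844 CPM in DMSO, 814, 736 and 786 CPM at 150 nM and 445, 437 and 421 CPM at 500 nM. All 3 libraries at 500 nM lay far below the others, and those at 150 nM lay below DMSO. The log2 fold change at 500 nM was -1.02 ± 0.05 (SE), adjusted p 2.90e-16, which left 0.495 of the DMSO level. At 150 nM it was -0.17 ± 0.05, which was not called (adjusted p 0.0740). CANX, its membrane-bound relative calnexin, averaged 858 ± 36.9 CPM (SD, n = 3) in DMSO and 671 ± 11.2 CPM at 500 nM, a log2 fold change of -0.36 ± 0.05 (adjusted p 2.27e-06).

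HSPA5 encodes BiP, the HSP70 chaperone that also holds the stress sensors inactive. Its level was 209, 209 and 178 CPM in DMSO, 217, 164.5 and 181 CPM at 150 nM and 122, 117 and 113 CPM at 500 nM. The libraries at 150 nM overlapped those of DMSO, whereas every library at 500 nM was lower than both. The log2 fold change at 500 nM was -0.76 ± 0.08 (adjusted p 2.75e-07). HSP90B1, which encodes GRP94 and folds immunoglobulins and Toll-like receptors among other clients, measured 248, 265 and 276 CPM in DMSO, 236, 247 and 257 CPM at 150 nM, and 158, 148 and 157 CPM at 500 nM. The fall of -0.77 ± 0.05 (adjusted p 1.66e-12) was close to that of HSPA5. HYOU1, a large HSP70-like protein that exchanges the nucleotide on BiP, went the other way. It rose from 93.8 ± 4.39 CPM in DMSO to 115.8 ± 6.09 CPM at 500 nM, a log2 fold change of 0.30 ± 0.06 (adjusted p 1.56e-04), without overlap between the groups.

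The co-chaperones and stress-secreted factors spread over the widest range of the chaperone class. MANF, a small secreted factor that binds BiP, had 62.7, 68.8 and 60.9 CPM in DMSO, 55.3, 56.1 and 55.7 CPM at 150 nM and 29.9, 29.9 and 30.6 CPM at 500 nM. The groups did not overlap at either dose, and the log2 fold change at 500 nM was -1.09 ± 0.07 (adjusted p 1.89e-13). SDF2L1, which works with ER HSP40 proteins to keep clients soluble, measured 31.8, 30.8 and 24.1 CPM in DMSO and 13.0, 16.5 and 14.6 CPM at 500 nM. It fell by 0.98 ± 0.10 on the log2 scale (adjusted p 7.88e-09). DNAJB11, a luminal HSP40 that hands clients to BiP, fell by a smaller 0.30 ± 0.06 (adjusted p 2.65e-04).

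DNAJB9 stood at the opposite end. It encodes ERdj4, an HSP40 of the ER that binds IRE1 and BiP and also serves degradation. Its level was 16.8, 19.2 and 17.5 CPM in DMSO, 17.9, 23.7 and 21.5 CPM at 150 nM and 33.5, 36.4 and 36.4 CPM at 500 nM. The libraries at 500 nM were all above the rest, a log2 fold change of 0.995 ± 0.10 (adjusted p 9.69e-10). At 150 nM the groups overlapped and the change of 0.24 ± 0.10 was not called (adjusted p 0.340). DNAJC3, which encodes the co-chaperone p58IPK, was not called at 500 nM (0.12 ± 0.06, adjusted p 0.0915). Nor was CRELD2, a secreted factor, whose 95% interval at 500 nM ran from -0.15 to 0.14.

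**Figure D2:**
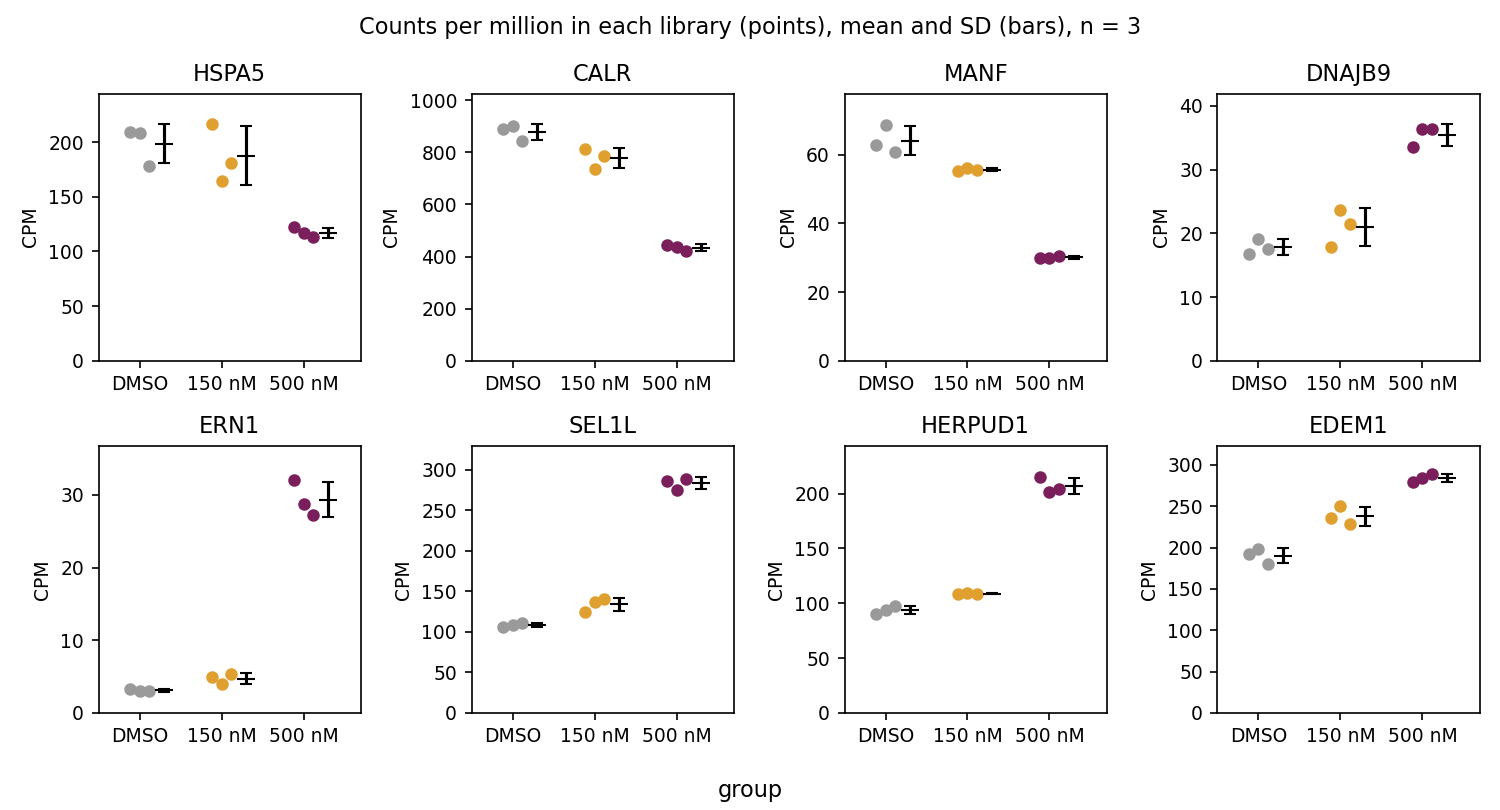
CPM (vertical axes, from 0) of 8 genes in the 3 libraries of each group (points), with the mean and SD (bars, n = 3). HSPA5, CALR and MANF were lower at 500 nM, MANF at about 30 CPM, while DNAJB9, ERN1, SEL1L, HERPUD1 and EDEM1 were higher, with no overlap with DMSO.

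The oxidoreductases, which form and rearrange disulfide bonds, split as well. PDIA3, the partner of calnexin and calreticulin, went from 468 ± 24.6 CPM in DMSO to 299.6 ± 10.8 CPM at 500 nM, a log2 fold change of -0.64 ± 0.05 (adjusted p 4.31e-11). PDIA4 fell by 0.54 ± 0.05 (adjusted p 2.10e-10) and PDIA6 by 0.28 ± 0.05 (adjusted p 5.64e-05), and neither overlapped DMSO. P4HB, the founding protein disulfide isomerase, rose slightly, from 228.8 ± 10.1 to 255 ± 10.4 CPM (0.16 ± 0.05, adjusted p 0.0167). That call was lost without DMSO replicate 3, 500 nM replicate 1 or 500 nM replicate 2 (adjusted p 0.0906, 0.0781 and 0.0712). ERO1L and ERO1LB encode the oxidases that recharge these isomerases. ERO1L was not called (-0.05 ± 0.07, adjusted p 0.583, 95% interval -0.20 to 0.10). The less abundant ERO1LB rose from 5.93 ± 0.891 to 7.97 ± 0.291 CPM (0.42 ± 0.13, adjusted p 0.0109), a call lost without DMSO replicate 2 (adjusted p 0.0701).

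Promoters of several members are shown because the textbook response acts on short elements upstream of these genes, and the carriers did not move one way here. The ER stress response element, searched as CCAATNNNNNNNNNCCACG on both strands, lay in the promoters of 7 of the 33 members with an entry (21.2%), against 0.0769% of 35116 RefSeq promoter entries. These are HSPA5, HSP90B1, CALR, CANX, PDIA6, CRELD2 and ERO1LB, all of the chaperone and oxidoreductase class. A second form, ATTGGNCCACG, lay in HYOU1, HERPUD1 and SDF2L1 (9.09% of members, 0.0541% of promoters). These are the textbook elements of such genes, so the shares are a description and not a test. A member was counted once if any of its entries matched, and 6 members have more than 1 entry. The promoter shares are of entries, the members' own included. Each promoter entry covers 250 bases before to 50 bases after the gene start in GRCh38.p14. The stretches below run 5′ to 3′ along the gene's strand, with the element in capitals and 20 bases on each side, and the elements of CALR, CRELD2, HYOU1, SDF2L1 and the second of HSP90B1 read in reverse.
HSPA5 (chr9:125241371-125241429, minus strand): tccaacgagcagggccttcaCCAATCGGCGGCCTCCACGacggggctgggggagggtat
HSP90B1 (chr12:103930196-103930254, plus strand): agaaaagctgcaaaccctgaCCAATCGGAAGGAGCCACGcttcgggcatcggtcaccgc
HSP90B1 (chr12:103930301-103930359, plus strand): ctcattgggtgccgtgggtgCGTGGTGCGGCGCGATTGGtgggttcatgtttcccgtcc
CALR (chr19:12938364-12938422, plus strand): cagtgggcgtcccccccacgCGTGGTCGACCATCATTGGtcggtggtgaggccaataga
PDIA6 (chr2:10812833-10812891, minus strand): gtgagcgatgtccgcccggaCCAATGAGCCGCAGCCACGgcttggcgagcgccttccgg
CRELD2 (chr22:49918534-49918592, plus strand): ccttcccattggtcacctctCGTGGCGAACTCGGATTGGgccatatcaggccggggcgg
HYOU1 (chr11:119057360-119057410, minus strand): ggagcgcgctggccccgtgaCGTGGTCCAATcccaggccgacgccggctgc
HERPUD1 (chr16:56932005-56932055, plus strand): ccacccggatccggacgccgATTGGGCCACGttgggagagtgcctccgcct
SDF2L1 (chr22:21642094-21642144, plus strand): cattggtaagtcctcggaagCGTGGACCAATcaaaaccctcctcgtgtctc

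Of the 7 carriers of the first element, 5 fell at 500 nM (HSPA5, HSP90B1, CALR, CANX and PDIA6), CRELD2 was not called and ERO1LB rose. Of the 3 carriers of the second, HYOU1 and HERPUD1 rose and SDF2L1 fell. The HSPA5 element begins at -66 from the gene start and that of HERPUD1 at -117. HYOU1 holds a further copy of the second element at -79. The XBP1-binding element TGACGTGG lay in HYOU1, SSR3 and SSR4 (9.09% of members, 0.729% of promoters), and in HYOU1 it overlaps the second element. The ATF4-type element TGATGNAA lay in HERPUD1 alone among the members (3.03%, against 3.62% of promoters). A match describes letters in this window and is not a measured binding site, and PDIA3, DERL1 and DERL3 had no entry.

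The sensors rose together, to very different extents. ERN1 encodes IRE1, the kinase and nuclease that splices XBP1 RNA. It measured 3.34, 2.97 and 3.04 CPM in DMSO, 4.89, 3.92 and 5.32 CPM at 150 nM and 32.0, 28.8 and 27.3 CPM at 500 nM. The 3 groups did not overlap. The log2 fold change at 500 nM was 3.23 ± 0.13 (adjusted p 2.97e-18), a 9.38-fold rise and the largest change among the 36 genes. At 150 nM it was 0.58 ± 0.14 (adjusted p 0.0249), a call lost without DMSO replicate 2 (0.121), DMSO replicate 3 (0.0595) or 150 nM replicate 3 (0.150). ATF6, which is cut in the Golgi to free a transcription factor, rose from 59.7 ± 1.51 CPM in DMSO to 83.6 ± 4.93 CPM at 500 nM (0.49 ± 0.07, adjusted p 6.91e-07) and was not called at 150 nM (0.06 ± 0.07, adjusted p 0.822).

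In the HRD1 complex, the adaptor and the scaffold rose and the ligase did not. SEL1L, the adaptor that ties substrate receptors to the ligase, measured 106, 109 and 111 CPM in DMSO, 124, 137 and 140.3 CPM at 150 nM and 287, 275 and 288.5 CPM at 500 nM. The 3 groups were fully separate. Its log2 fold change was 0.30 ± 0.05 at 150 nM (adjusted p 0.00159) and 1.38 ± 0.05 at 500 nM (adjusted p 4.18e-18, 2.60-fold). HERPUD1, a membrane protein that helps assemble the complex, had 90.3, 93.6 and 97.1 CPM in DMSO, 108, 109.6 and 108 CPM at 150 nM and 215, 201 and 204 CPM at 500 nM. It rose by 0.22 ± 0.05 at 150 nM (adjusted p 0.0403) and by 1.14 ± 0.05 at 500 nM (adjusted p 2.52e-16), and the groups were again separate. The call at 150 nM was lost in 7 of the 9 fits that left out a library, with adjusted p from 0.0669 to 0.202.

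SYVN1, the HRD1 ligase itself, measured 56.2, 47.4 and 47.4 CPM in DMSO, 50.7, 47.5 and 48.0 CPM at 150 nM and 41.9, 47.2 and 47.5 CPM at 500 nM. The groups overlapped, and the change of -0.15 ± 0.08 at 500 nM was not called (adjusted p 0.110). With offsets for GC content it was called lower, at -0.21 (adjusted p 0.00255). Those offsets also called DNAJC3 (0.15, adjusted p 0.00307), EDEM3 (0.11, 0.0276) and SSR2 (0.12, 0.0278) higher. Among the derlins, rhomboid-like proteins of the exit channel, DERL1 rose from 102 ± 3.32 to 134.8 ± 2.32 CPM at 500 nM (0.40 ± 0.06, adjusted p 7.91e-07). DERL2 was not called (0.04 ± 0.09, adjusted p 0.752). The low DERL3 was just outside the call at 500 nM (0.33 ± 0.14, adjusted p 0.0520) and inside it in 10 of 22 alternative fits.

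The lectin-like factors that select glycoproteins for disposal also leaned upward. EDEM1, which trims mannose from misfolded glycoproteins, measured 192, 198 and 179.9 CPM in DMSO, 235, 250.5 and 228 CPM at 150 nM and 279.9, 284 and 288.5 CPM at 500 nM. The groups were separate at each step. EDEM1 had the smallest adjusted p of the members at 150 nM (0.33 ± 0.05, adjusted p 2.89e-04) and reached 0.58 ± 0.05 at 500 nM (adjusted p 2.74e-10). OS9, a lectin that hands glycoproteins to SEL1L, rose by 0.25 ± 0.05 (adjusted p 1.99e-04) and EDEM2 by 0.31 ± 0.09 (adjusted p 0.00397), both at 500 nM. EDEM3 was not called (0.08 ± 0.06, adjusted p 0.280).

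**Figure D3:**
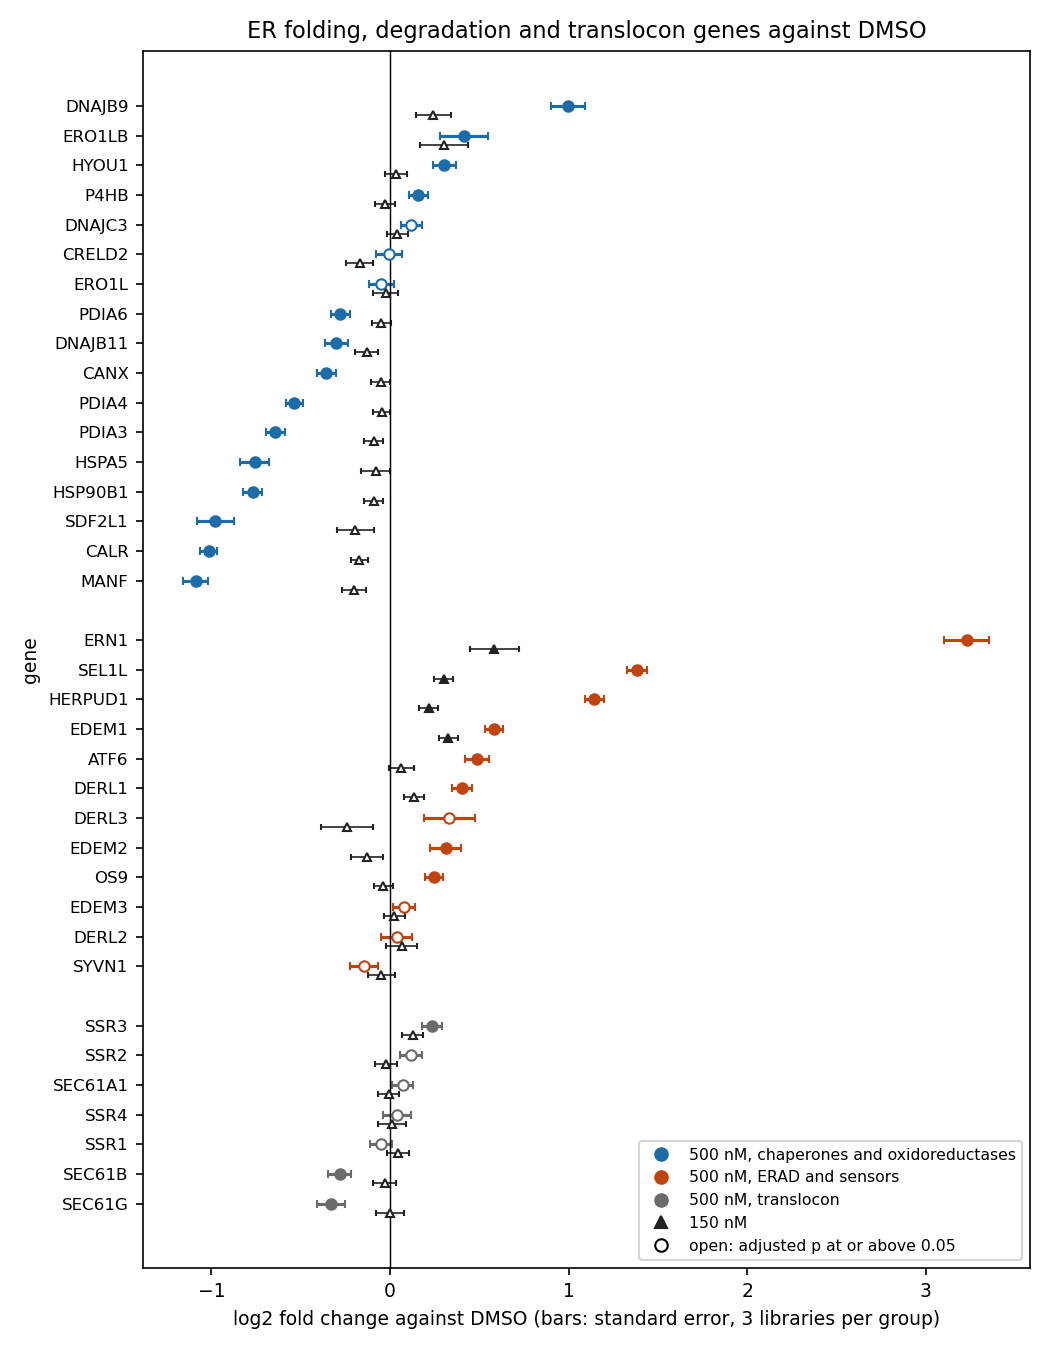
Log2 fold change against DMSO (horizontal axis) of the 36 genes (vertical axis, by class) at 500 nM (circles) and 150 nM JIB-04 (triangles), with standard errors as bars; filled symbols passed an adjusted p of 0.05. The 10 chaperones and oxidoreductases called lower run from -0.28 to -1.09, and the 8 ERAD and sensor genes called higher run from 0.25 to 3.23.

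The translocon genes moved little. SEC61A1, the pore subunit, was not called at 500 nM (0.07 ± 0.06, adjusted p 0.318). The small subunits SEC61B and SEC61G fell by 0.28 ± 0.06 (adjusted p 5.45e-04) and by 0.33 ± 0.08 (adjusted p 6.97e-04). Both have short transcripts, of 587 and 732 bases. Both calls were lost with offsets for transcript length (-0.02, adjusted p 0.791, and -0.13, adjusted p 0.119), and that of SEC61B also with scaling by total counts (-0.14, adjusted p 0.0627). Of the translocon-associated proteins, which assist SEC61 with some signal sequences, SSR3 rose by 0.23 ± 0.06 (adjusted p 0.00119). SSR1 (-0.05, adjusted p 0.493), SSR2 (0.12, adjusted p 0.104) and SSR4 (0.04, adjusted p 0.707) were not called.

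At 150 nM the members called were ERN1, SEL1L, HERPUD1 and EDEM1, all higher and all of the ERAD and sensor class. They are 4 of 36 members, where 0.954% of all genes tested were called higher and 0.318% lower. Of the 17 chaperones and oxidoreductases 0 were called by edgeR's quasi-likelihood test, limma-voom or DESeq2. Before adjustment, 5 of the 17 reached a p under 0.05: MANF, CRELD2 and CALR with lower values, DNAJB9 and ERO1LB with higher ones. So did 1572 of all 15089 genes tested. Without 150 nM replicate 1, CALR was called lower (adjusted p 0.00834) and DNAJB9 (0.0279) and SSR3 (0.0371) higher, for 7 members called. That fit called 545 of all 15401 genes tested, against 192 of 15089 with every library. The class medians were -0.05 for chaperones and oxidoreductases and 0.06 for ERAD and sensor genes, beside -0.003309 for all genes tested. The median of the first class minus that of the second was -0.12 at 150 nM and -0.67 at 500 nM. The treated and DMSO libraries were fully separate for 10 of 36 members at 150 nM (27.8%, against 13.7% of all genes tested) and for 27 of 36 at 500 nM (75%, against 59.2%). Both doses are set against the same DMSO libraries.

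Set directly against 150 nM, the 500 nM libraries had 12 members higher and 12 lower, where 23.7% of all genes tested were called higher and 22.8% lower. By class, 10 chaperones and oxidoreductases were lower and 3 higher, 9 ERAD and sensor genes were higher and 0 lower, and 2 translocon genes were lower. The steps were largest for ERN1 (2.64 ± 0.12, adjusted p 1.60e-16), SEL1L (1.08 ± 0.05, adjusted p 1.67e-15) and HERPUD1 (0.93 ± 0.05, adjusted p 4.06e-14) upward, and for MANF (-0.89 ± 0.07, adjusted p 2.50e-11) and CALR (-0.84 ± 0.05, adjusted p 3.25e-14) downward. DERL3, uncalled against DMSO, was called here (0.57 ± 0.14, adjusted p 0.00170). With scaling by total counts, 18 members were higher and 9 lower, among them 3 translocon genes higher and 1 lower. Over all 15089 genes tested, that scaling called 5257 higher and 2137 lower, against 3577 and 3444 with TMM. The SEC61B call was lost under that scaling (adjusted p 0.0969) and with length offsets (-0.05, adjusted p 0.5305), and GC offsets called SYVN1 lower (-0.21, adjusted p 0.00402). They also called SSR4 (-0.14, 0.0389) lower and DNAJC3 (0.15, 0.0033), EDEM3 (0.13, 0.00884) and SSR3 (0.18, 3.5e-04) higher. The P4HB call was lost with them (adjusted p 0.0639).

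**Figure D4:**
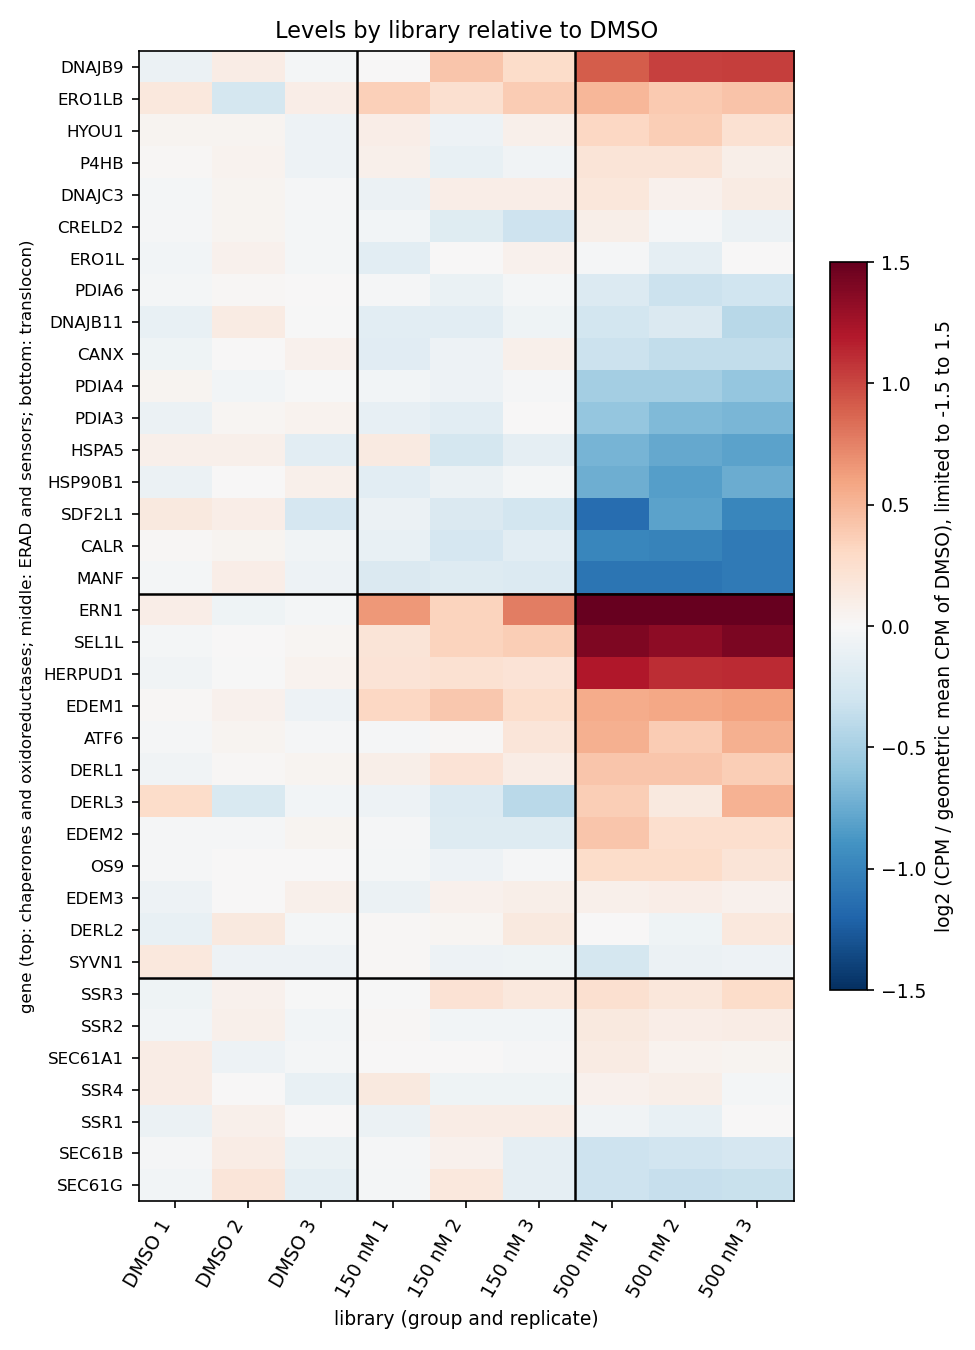
Level of each of the 36 genes (rows, by class) in each library (columns) as the log2 ratio to the geometric mean CPM of DMSO; the colour scale is limited to -1.5 to 1.5, which ERN1 exceeds at 500 nM. The 3 libraries at 500 nM look alike within each row, with blue rows from PDIA6 to MANF and red rows from ERN1 to DERL1.

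Per kilobase of transcript, so that genes can be compared, the most abundant members in DMSO were CALR (461.5 CPM per kilobase), CANX (201.5) and SEC61B (161.6). The least abundant were ERN1 (0.396), ERO1LB (1.30) and DERL3 (2.37). Lengths are of the longest annotated protein-coding transcript of each gene. At 500 nM CALR was among those that fell most and ERN1 rose most, but the order of levels was not the order of changes. CANX fell by 0.36, and MANF, at 55.6 CPM per kilobase, fell most (-1.09). ERO1LB rose by 0.42 and DERL3 was not called. Median transcript length was 2858 bases for chaperones and oxidoreductases and 3774.5 bases for ERAD and sensor genes, and median GC content was 46.0% and 46.6%. In a GRCh38 annotation (GENCODE v29), 21 of the 36 members have an exon that overlaps a gene on the other strand, among them DNAJB9, CALR and EDEM1. Of these, 4 also overlap a gene on the same strand: HSP90B1, DNAJB11, SYVN1 and SSR1. Whether reads were counted by strand is not stated, and the reads of such partners cannot be told apart. ERN1, SEL1L, HERPUD1, HSPA5, MANF, SDF2L1, PDIA4 and ATF6 have no such overlap.

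Of 8 tested regulators of the unfolded protein response outside the set, 6 were called higher at 500 nM and 1 lower, beside 26.3% and 25.6% of all genes tested. XBP1, the target of IRE1, had 8.83, 6.78 and 6.88 CPM in DMSO and 26.6, 21.8 and 21.5 CPM at 500 nM, a log2 fold change of 1.63 ± 0.12 (adjusted p 5.79e-12). These counts per gene do not separate its spliced form. DDIT3, which encodes the stress factor CHOP, rose from 8.35 to 62.1 CPM on average (2.91 ± 0.11, adjusted p 1.00e-18) and was called at 150 nM as well (0.69, adjusted p 3.48e-04). ATF4 rose by 0.59 ± 0.04 (adjusted p 7.68e-12) and EIF2AK3 by 0.26 ± 0.07 (adjusted p 0.00436). MBTPS1, the protease that first cuts ATF6, fell by 0.20 ± 0.05 (adjusted p 0.00258).

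Targets of PERK and the integrated stress response, a pathway that also answers amino acid shortage, rose at both doses. All 10 listed were called higher at 500 nM, where 26.3% of all genes tested were, with a median log2 fold change of 3.01. At 150 nM, where 0.954% of all genes tested were called higher, 9 of 10 were, with a median of 0.76. SESN2 went from 16.8 CPM in DMSO to 36.5 CPM at 150 nM and 209 CPM at 500 nM, CHAC1 from 4.69 to 15.5 and 108 CPM, and PPP1R15A from 10.6 to 15.9 and 94.6 CPM.

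Beyond the 36 members, other folding and degradation factors were mixed in direction at 500 nM, where 26.3% of all genes tested were called higher and 25.6% lower. Of 26 other folding factors 14 rose and 8 fell, with a median of 0.18. DNAJC10 (0.50 ± 0.06, adjusted p 4.29e-08), a disulfide reductase that serves ERAD, ERP29 (0.47 ± 0.06, adjusted p 1.02e-07) and DNAJC1 (1.002 ± 0.13, adjusted p 1.83e-07) rose. MZB1, a B-cell co-chaperone of GRP94 that aids antibody assembly, fell from 182 to 96.0 CPM (-0.92 ± 0.06, adjusted p 3.64e-13), in the same direction as HSP90B1. Of 23 other ERAD factors 11 rose and 8 fell, with a median of 0.08. MAN1B1 (0.57), ERLIN1 (0.56) and FAM8A1 (0.51) rose. VCP, the ATPase that pulls substrates out of the membrane, fell from 818 to 440.1 CPM (-0.89 ± 0.05, adjusted p 1.03e-14), against the direction of SEL1L and HERPUD1.

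Of 23 other genes of protein entry and glycosylation, 5 were called higher and 4 lower at 500 nM, with a median of -0.02, below the shares over all genes tested. With GC offsets 8 were higher and 6 lower, and with GC offsets and the replicate block 8 and 7. Over all 15089 genes tested, GC offsets called 4280 higher and 4317 lower, and with the block 4296 and 4332. The main fit called 3975 and 3868. SEC63 (0.46), SEC11C (0.41) and SRPRB (0.28) rose and STT3B (-0.32), a catalytic subunit of oligosaccharyltransferase, fell. At 150 nM edgeR's quasi-likelihood test called 0 genes in the lists of other folding, other ERAD and entry genes, with 8, 3 and 2 at an unadjusted p under 0.05. Over all 15089 genes tested, 1572 reached such an unadjusted p. DESeq2 called 1 of the other folding factors and 0 in the other lists, and limma-voom 0 in each. Without 150 nM replicate 1 the counts were 6, 3 and 3, in a fit that called 545 of all 15401 genes tested. The main fit called 192 of 15089.

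**Figure D5:**
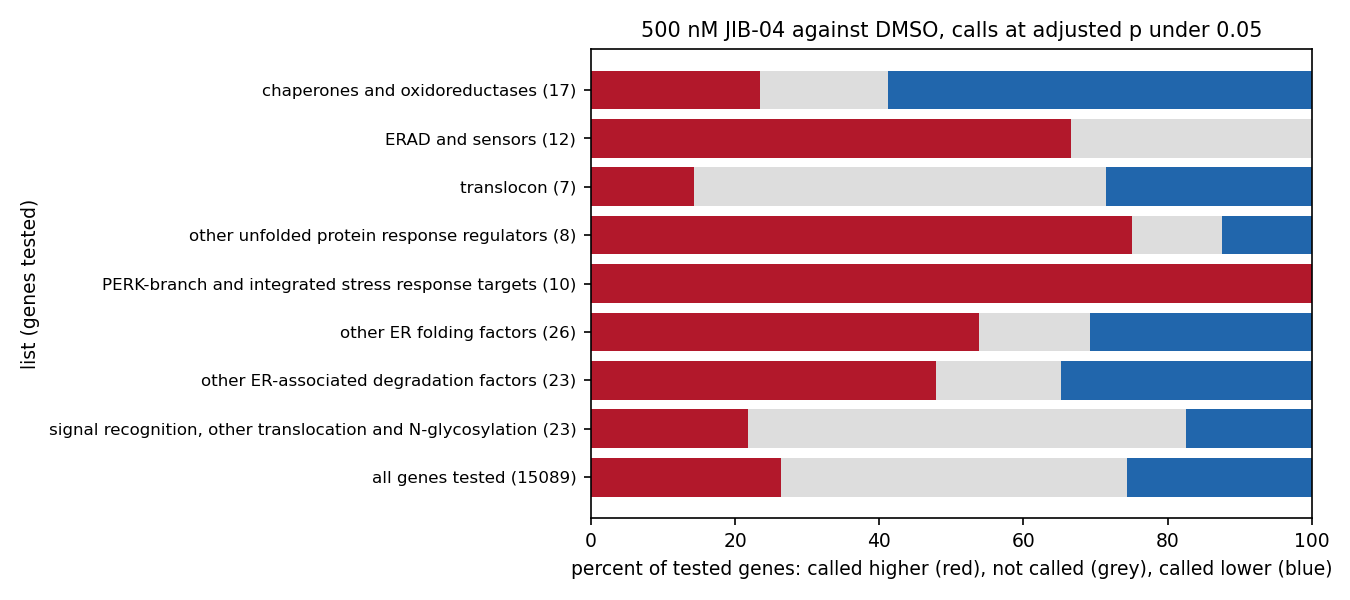
Share of tested genes (horizontal axis, percent) called higher (red), not called (grey) and called lower (blue) at 500 nM against DMSO, for each list (vertical axis, number tested in brackets) and for all genes tested. The 12 ERAD and sensor genes have no blue part, the 10 targets of PERK and the integrated stress response are all red, and all genes tested divide into 26.3% higher and 25.6% lower.

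Marker genes of other cell types differed in level. The 6 T-cell markers summed to 34.7 to 39.4 CPM in DMSO, 29.5 to 32.8 CPM at 150 nM and 17.5 to 19.5 CPM at 500 nM, with TRAT1 at 0 throughout. The 6 plasma-cell markers summed to 915 to 931 CPM in DMSO, 888 to 1020.0 CPM at 150 nM and 1016 to 1020.0 CPM at 500 nM, with SDC1 at 0 in DMSO and at 150 nM. Of the 5 tested plasma-cell markers, IRF4 and TNFRSF17 were called higher at 500 nM, JCHAIN and CD38 lower and PRDM1 not called, with a median log2 fold change of -0.43. Myeloid markers summed to at most 2.86 CPM and fibroblast markers to at most 1.59 CPM in any library. The part of these marker levels in the changes of ER genes was not tested. Scaling by total counts instead of TMM moved the median of all genes tested at 500 nM from 0.0122 to 0.1512, and the share of calls that were higher from 50.7% to 69.5%. Under it 18 members were higher and 11 lower against DMSO, with 10 chaperones and oxidoreductases still lower, and the uncalled CRELD2, ERO1L and SSR1 changed sign. Over all 15089 genes tested it called 5716 higher and 2514 lower, against 3975 and 3868 with TMM.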

How the data were processed

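RNA was measured in OCI-Ly1 cells, with 3 libraries in each of 3 groups taken from the sample titles. The authors deposited raw counts of reads per gene symbol. Per the submitters' processing notes, the tools were featureCounts 1.4.6 (Subread), Bowtie2 2.2.6 and TopHat2 2.0.14, and the builds, with no role given, hg19 and mm10. For annotation and strand, nothing is stated there. Counts were fitted with edgeR 4.0.16 in R 4.3.3 (filterByExpr, minimum count 10 and total 15; TMM; quasi-likelihood test on all 9 libraries by group; Benjamini-Hochberg over all genes tested). SE is the size of the unshrunk log2 fold change over the root of F, and CPM are TMM-scaled. The members, lists and motifs were chosen with earlier results of these data known. All members are named, and of other lists up to 3 genes with the smallest adjusted p at 500 nM in the main direction and 1 in the other, plus XBP1, EIF2AK3, ATF4 and DDIT3. Alternatives were DESeq2 1.42.0, limma-voom (limma 3.58.1), other scalings, filters, sample sets and a replicate block, GC offsets, thinning, leaving out each library and, chosen after seeing the data, length offsets; 95.6% of tested genes had a GC content and length. The fit was tested on simulated data. Libraries of a group differed beyond counting error (chi-square per degree of freedom 6.617 to 16.13). Promoters are RefSeq's (GRCh38.p14), for 33 of 36 members.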

Additional observations from a re-analysis of the deposited data

How the results depend on the processing

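Across 22 alternatives, 21 of the 25 members called at 500 nM against DMSO were called in every one, as were 20 of 24 for 500 against 150 nM and SEL1L and EDEM1 of the 4 at 150 nM, with no call of opposite sign. Of the 11 members not called at 500 nM against DMSO, 6 were called in at least 1 alternative. The same held for 9 of 12 for 500 against 150 nM and for 3 of 32 at 150 nM. At 150 nM, limma-voom and the fit of only the 6 libraries compared each called 2 members, both of the ERAD and sensor class, and lost ERN1 and HERPUD1. Leaving out 1 library gave 2 to 7 members, 2 to 4 of them ERAD and sensor genes and 0 to 2 chaperones or oxidoreductases. With the replicate number as a block, 1 chaperone was called at 150 nM (CALR, lower, adjusted p 0.0305), as with GC offsets (1) and GC offsets with the block (1). The replicate block called 5 members at 150 nM, 26 at 500 nM against DMSO and 26 for 500 against 150 nM. Over all 15089 genes tested it called 308, 8133 and 7386, against 192, 7843 and 7021 in the main fit. The labels do not say that replicate numbers pair libraries, so the numbers were not taken as pairs. After group means were removed, same-numbered DMSO and 150 nM libraries correlated at 0.237, 0.034 and 0.191. Differently numbered libraries of these groups ran from -0.217 to 0.037. Same-numbered libraries correlated at -0.075 to 0.029 where a 500 nM library was involved. Whether the numbers mark pairs was not tested. The difference of class medians at 500 nM against DMSO ran from -0.783 (without DMSO replicate 1) to -0.621 when 1 library was left out. SSR4, uncalled for 500 against 150 nM, was called lower with GC offsets (-0.14, adjusted p 0.0389) and with GC offsets and the block (-0.14, adjusted p 0.0403). Over all genes, 192 were called at 150 nM, against 291 by DESeq2, 320 without a filter, 101 in the 6 libraries compared, 308 with the block, 358 with GC offsets, 408 with both, and 98 (without 150 nM replicate 2) to 545 (without 150 nM replicate 1). With total-count scaling the share of calls that were higher went from 75% to 83.5% at 150 nM and from 50.9% to 71.1% for 500 against 150 nM. The lowest count of a member was 81 (ERN1), and thinning every library to the smallest total lost the DNAJB11 call for 500 against 150 nM (adjusted p 0.0566) and gained DERL3 at 500 nM against DMSO (adjusted p 0.0399). The causes of these differences were not tested.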
